A study of Mus musculus with 24 samples.

Results

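Gene expression without T cell stimulation was compared between 4 libraries from mice given propyzamide and 4 libraries from mice given an empty vehicle. These 8 libraries, taken from a series of 24, were chosen by their labels alone: each is marked as naive and as having had no anti-CD3. All came from male C57BL/6 mice 11 weeks old, with no allele or other treatment stated. Propyzamide is a herbicide that blocks microtubule assembly in plants, and the other 16 libraries of the series were taken 3 h or 24 h after anti-CD3, which stimulates T cells through their antigen receptor. The labels used here name no tissue, cell sort, dose or route. Nothing in the labels says whether the libraries of a group came from separate animals, so p-values measure only the spread between these samples, which may be technical. The libraries hold between 630087 and 2023576 estimated counts, of which only 4.62% to 9.64% lie in named protein-coding genes.

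No gene was called between propyzamide and vehicle in the unstimulated state. Of 3799 genes tested with edgeR's quasi-likelihood test, 0 passed a Benjamini-Hochberg adjusted p of 0.05 (0%), and the smallest adjusted p was 0.527. At an unadjusted p under 0.05 there were 128 genes (3.37%), 57 with a higher estimate with propyzamide and 71 with a lower one. Among named protein-coding genes, the highest transcripts were those of Paneth cells, the secretory cells at the base of small intestinal crypts, while the gene model Gm10800 alone held 41.9% to 45.9% of all counts. Paneth cells store antimicrobial peptides in granules, above all the alpha-defensins (called cryptdins in mice), with lysozyme and a glycan-binding lectin. They release them into the crypt, where they act on bacteria. T cells, named in the title of the series, are recognised by the CD3 chains of their antigen receptor complex. The gene of the epsilon chain, Cd3e, was near the limit of detection, with 6 counts with vehicle and 5 with propyzamide.

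Alpha-defensin genes were the highest named protein-coding genes in these libraries. Levels between genes are given per length, as TPM rescaled to 1000000 over named protein-coding genes. Of the 30 highest genes, 14 were alpha-defensins, and the 28 alpha-defensin genes in the files together took 20.2% ± 5.46 (SD, n = 8) of that total. Their share was 23.6, 15.7, 22.8 and 18.9 in the vehicle libraries and 19.1, 30.02, 19.5 and 11.8 in the propyzamide libraries. Propyzamide replicate 2 had the highest share and propyzamide replicate 4 the lowest, so both extremes lay in the same group and enclosed all 4 vehicle libraries.

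Defa24 led the ranking (GRCm38 chromosome 8, 21734494 to 21735471, plus strand). Its rescaled TPM was 69137, 46217, 64788 and 51169.8 in the vehicle libraries and 52662, 88235, 55025 and 30977 in the propyzamide libraries. The groups overlapped throughout, and the estimate of the difference was near 0 (log2 fold change 0.19 ± 0.39 (SE), 95% interval -0.61 to 0.98, edgeR adjusted p = 1). Defa23, Defa30 and Defa17 followed at 21128 ± 6254, 19717 ± 4896 and 18532 ± 5718 (SD, n = 8). These 3 levels lie within 1 SD of each other, whereas that of Defa24 was the highest of all named protein-coding genes in each of the 8 libraries. The 4 coding sequences are shown because they are so alike that reads cannot always be given to a single member. Each runs from the start codon over 279 bases in the GENCODE transcripts of GRCm38, 5′ to 3′, with capitals at the bases that differ from Defa24.
Defa24: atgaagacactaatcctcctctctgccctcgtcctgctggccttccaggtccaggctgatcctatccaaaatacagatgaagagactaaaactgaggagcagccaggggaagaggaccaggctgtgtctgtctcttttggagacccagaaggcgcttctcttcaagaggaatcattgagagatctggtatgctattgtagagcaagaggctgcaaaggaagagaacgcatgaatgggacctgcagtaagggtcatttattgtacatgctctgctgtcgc
Defa23: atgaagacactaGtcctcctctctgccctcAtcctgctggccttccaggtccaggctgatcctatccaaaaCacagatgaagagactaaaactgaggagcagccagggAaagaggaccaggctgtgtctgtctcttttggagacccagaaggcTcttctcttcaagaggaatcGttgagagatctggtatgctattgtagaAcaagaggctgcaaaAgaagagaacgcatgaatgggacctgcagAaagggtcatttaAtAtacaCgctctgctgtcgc
Defa30: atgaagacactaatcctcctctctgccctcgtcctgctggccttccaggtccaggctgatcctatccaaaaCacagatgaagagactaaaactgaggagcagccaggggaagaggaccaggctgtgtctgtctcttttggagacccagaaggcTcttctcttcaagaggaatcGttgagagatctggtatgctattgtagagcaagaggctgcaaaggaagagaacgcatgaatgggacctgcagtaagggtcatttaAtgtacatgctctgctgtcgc
Defa17: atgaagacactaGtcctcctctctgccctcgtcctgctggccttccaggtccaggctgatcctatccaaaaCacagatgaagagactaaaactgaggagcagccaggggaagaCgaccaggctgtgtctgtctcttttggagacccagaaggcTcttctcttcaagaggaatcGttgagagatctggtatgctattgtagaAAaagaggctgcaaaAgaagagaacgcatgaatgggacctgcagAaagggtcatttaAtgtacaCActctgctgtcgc
Defa30 differed from Defa24 at 4 of 279 bases (98.6% identity), and Defa23 and Defa17 each at 12 (95.7%). Every stretch of 31 bases in the Defa23 transcript also occurs in transcripts of other genes, 29 in all, and for Defa24 57.1% of stretches do. The level of the family is therefore better determined than the level of any single member.

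**Figure D1:**
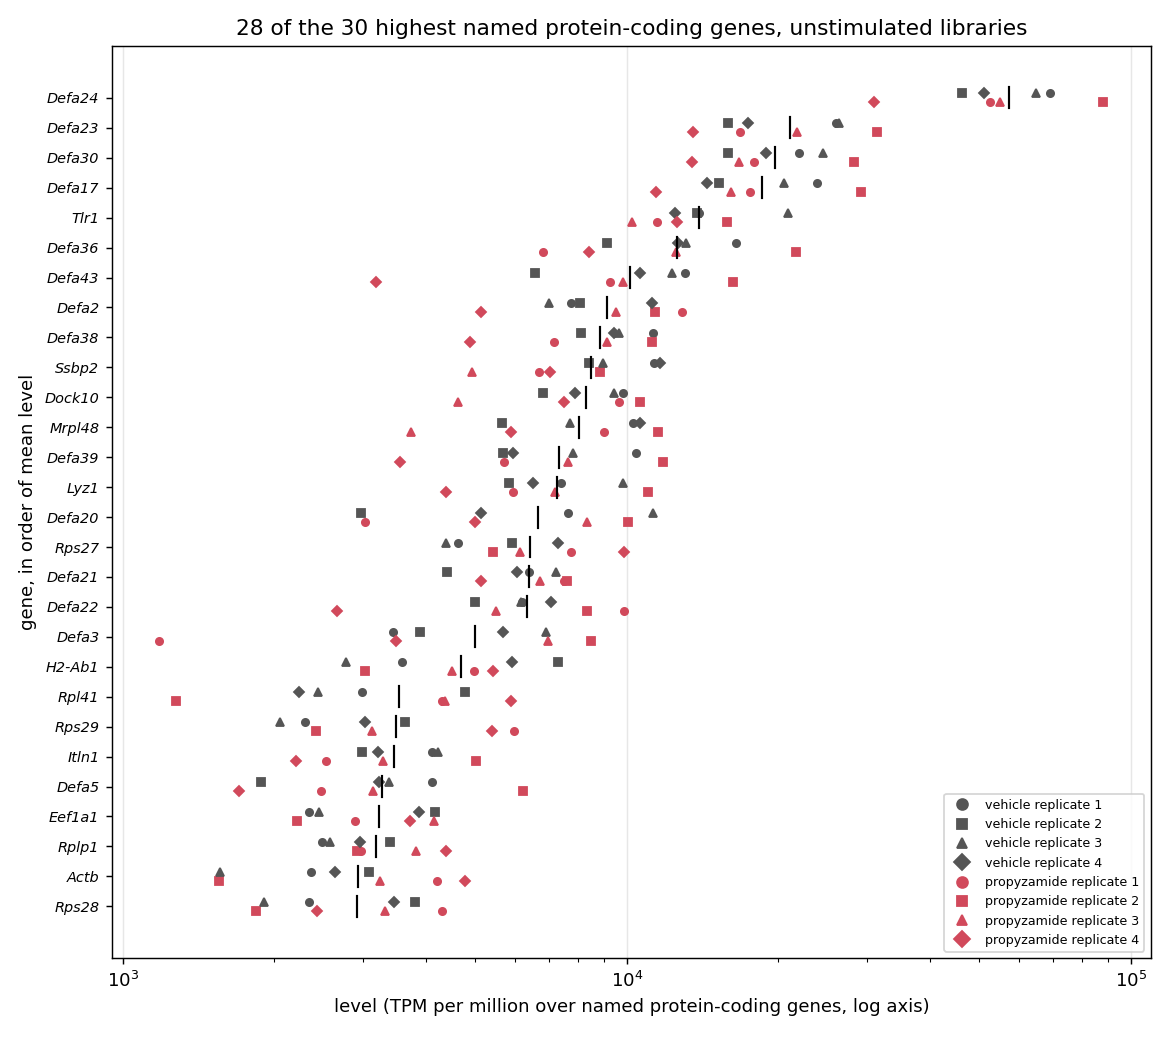
Rescaled TPM (log axis) of 28 of the 30 named protein-coding genes with the highest mean over the 8 unstimulated libraries, in order of that mean, with 1 point per library (grey for vehicle, red for propyzamide, shape for the replicate) and a bar at the mean. Alpha-defensins fill the first 4 places, vehicle and propyzamide points overlap for all genes shown, and propyzamide replicate 2 (red square) is often highest where propyzamide replicate 4 (red diamond) is lowest.

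The other Paneth cell products ranked high too. Lyz1, the Paneth cell lysozyme that cleaves bacterial cell walls (chromosome 10, 117287797 to 117292868, minus strand), had a rescaled TPM of 7399, 5827, 9832 and 6522 in the vehicle libraries and 5950.4, 11017, 7222 and 4381 in the propyzamide libraries. Itln1, an intelectin that binds microbial glycans, had 4102, 2981, 4214 and 3216 in the vehicle libraries and 2534, 5033, 3284 and 2209.9 in the propyzamide libraries. In both genes propyzamide replicate 2 was highest and propyzamide replicate 4 lowest, as for the alpha-defensins. Neither gene separated the groups: the estimates were 0.17 ± 0.39 for Lyz1 and 0.072 ± 0.40 for Itln1, and both intervals lie within a 2-fold change in either direction. These estimates are from TMM-normalized counts. On rescaled TPM the means were lower with propyzamide (Lyz1 7395 with vehicle and 7143, Itln1 3628 and 3265). So was the mean sum of the Paneth cell list (157918 and 156688). Each of these gaps is smaller than the SD of either group. Over the 15 Paneth cell markers, 15 had a positive estimate, with a median of 0.21. That count moved to 12, with a median of 0.12, without propyzamide replicate 3. Without propyzamide replicate 2 the median turned to -0.045. It was -0.10, with 5 of 14 positive, when only protein-coding transcripts were counted, an alternative added after the data were seen.

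Reg3b and Reg3g, C-type lectins that the epithelium makes against bacteria, were the Paneth list's members at an unadjusted p under 0.05. Of all tested genes, 3.37% had such a p in either direction. Reg3b had 4, 27, 30 and 10 with vehicle and 27, 7, 177 and 13 with propyzamide (counts). Propyzamide replicate 3 alone held 177 of the 295 counts, and propyzamide replicate 2 lay below 3 of the vehicle libraries in counts, and below 2 once scaled to depth. The estimate was 2.17 ± 0.78 (SE, edgeR adjusted p = 1) and became 1.18 without that library. Reg3g had 8, 31, 33 and 5 with vehicle and 25, 9, 114 and 7 with propyzamide (counts), with propyzamide replicates 1 and 3 high in both genes once scaled to depth.

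Ribosomal proteins, antigen presentation and housekeeping transcripts made up most of the remaining top genes. The 93 ribosomal protein genes took 11.6% ± 3.00 (SD, n = 8) of the rescaled TPM, with Rps27, a component of the small ribosomal subunit, the highest of them. H2-Ab1, the beta chain of MHC class II I-A, which presents peptides to CD4 T cells, had 3586, 7291, 2772 and 5922 in the vehicle libraries and 4966, 3018, 4492 and 5423 in the propyzamide libraries. The elongation factor Eef1a1 and beta-actin (Actb) had means of 3225 and 2925. These means are closer together than the SD of each over the 8 libraries (836 and 1155), so their order carries no weight. None of the 30 genes had groups that did not overlap, against 37 of 3799 tested genes with propyzamide higher (0.974%) and 80 with propyzamide lower (2.11%).

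Of these 30, Tlr1, Ssbp2, Dock10 and Mrpl48 ranked high through transcripts that code for no protein. Tlr1 encodes a bacterial lipopeptide receptor and stood among the first places, yet 99.4% of its 2828 counts lay in Tlr1-203, a processed transcript of 419 bases, and 0.617% in its protein-coding transcripts. Its stretch from base 41 to base 180 is shown because it holds the repeats of the transcript (GRCm38 chr5:64933183-64933322, minus strand, 5′ to 3′, GENCODE). Runs of at least 5 CT, GT or TG units are in capitals. The stretch lies in an exon of Tlr1-203 and overlaps none of the gene's annotated UTRs.
Tlr1-203: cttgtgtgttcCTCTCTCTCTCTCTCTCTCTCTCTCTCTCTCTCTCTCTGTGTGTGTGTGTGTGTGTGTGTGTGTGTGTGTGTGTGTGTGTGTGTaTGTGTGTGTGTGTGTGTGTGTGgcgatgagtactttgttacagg
These repeats fill 106 of the 419 bases. Of the transcript's stretches of 31 bases, 21.3% occur in other genes, 3645 genes in all. Where in the transcript the counts lie was not tested. For Ssbp2, a single-stranded DNA-binding protein, Dock10, a guanine nucleotide exchange factor, and Mrpl48, a mitochondrial ribosomal protein, the share of counts in protein-coding transcripts was 0.312%, 0.385% and 1.25%. The counts of Dock10 lay in a transcript with a retained intron, and those of Ssbp2 and Mrpl48 in processed transcripts. When only protein-coding transcripts were counted, an alternative added after the data were seen, these 4 genes left the top 30, and Fau, Rps14 and Cd74 were among those that entered it. The first 4 places did not change.

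Markers of several cell types were present, and those of T cells were lower than those of B cells and plasma cells. As summed rescaled TPM, the T cell list (17 genes, 524 counts in all) had 627, 846, 432 and 438 with vehicle and 748, 681, 483 and 896 with propyzamide. The B cell list had 1506 to 3290.2 with vehicle and 1364 to 2841 with propyzamide. The plasma cell list, led by the antibody genes Igha and Igkc, had 16308 to 27095 and 19117 to 27625. Igha and Igkc are not among the named protein-coding genes, so the ranking above leaves them out. Other lists lay on both sides of the T cell list, whose mean over the 8 libraries was 644. The macrophage and goblet cell lists had 3836 and 3044, and the erythroid and dendritic cell lists had 607 and 569. Cd3e, the CD3 epsilon chain, had 1, 3, 1 and 1 with vehicle and 0, 1, 4 and 0 with propyzamide (counts), and the co-receptors Cd4 and Cd8a had 41 and 23 counts in all 8 libraries. In bulk RNA, fewer cells of a type and less RNA per cell cannot be told apart.

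T and B cell genes gave no called difference. Of the T cell list, only Cd247, Cd2, Cd28, Lck and Trbc2 passed the filter on low counts, with 2 of 5 positive and a median of -0.78 that turned to 0.36 without vehicle replicate 2. When the fit held only the unstimulated libraries, 1 member of that list passed the filter, with a positive estimate (0.50). Lck, the kinase that starts T cell receptor signalling, had 4.13, 7.01, 4.61 and 6.24 in the vehicle libraries and 8.35, 4.50, 7.80 and 11.2 in the propyzamide libraries (TMM-normalized CPM, log2 fold change 0.50 ± 0.45 (SE)). Ccr7, the lymph node homing receptor of naive lymphocytes and mature dendritic cells, had 37.2, 107, 38.9 and 83.4 in the vehicle libraries and 41.7, 23.4, 59.6 and 67.0 in the propyzamide libraries. All 6 tested members of the naive lymphocyte list (Ccr7, Tcf7 and S1pr1 among them) had negative estimates, from -1.30 ± 0.66 for the chromatin organiser Satb1 to -0.36 ± 0.49 for the transcription factor Foxp1, and each of the 6 intervals includes 0. The median of that list was -0.52 and was negative without each library in turn (-0.81 to -0.19). When the fit held only the unstimulated libraries, 3 members of that list passed the filter on low counts. Of these, 0 were positive (median -0.46). Among B lineage genes, the heavy chain Ighm had an estimate of 0.042 ± 0.46, and its interval (-0.91 to 0.99) lies within a 2-fold change. Igha, the heavy chain of the IgA that plasma cells secrete into the gut, had 419, 344, 318 and 518 in the vehicle libraries and 571, 563, 617 and 260.3 in the propyzamide libraries (CPM, log2 fold change 0.33 ± 0.61 (SE)), and Igkc had 0.62 ± 0.48.

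Absorptive epithelial genes had the largest positive estimates of any cell type list with at least 3 tested members, and much of their size lay in 1 library. All 9 tested enterocyte genes had a positive estimate (median 1.21), where 1903 of the 3799 tested genes (50.1%) and 1510 of the 2465 named protein-coding genes (61.3%) did. Fabp1, which carries fatty acids inside enterocytes, had 36, 48, 49 and 64 with vehicle and 52, 14, 336 and 44 with propyzamide (counts). Apoa1, an apolipoprotein of chylomicrons and high-density lipoprotein, had 9, 29, 15 and 21 with vehicle and 9, 1, 212 and 25 with propyzamide. Propyzamide replicate 3 held most of the propyzamide counts of both genes, and propyzamide replicate 2 lay below all vehicle libraries, so the propyzamide group spanned the vehicle group. The summed rescaled TPM of the enterocyte list was 2737, 2355, 2400.1 and 3503 with vehicle and 5124, 1239, 12656 and 4296 with propyzamide. By this sum propyzamide replicates 1, 3 and 4 lay above all vehicle libraries and propyzamide replicate 2 below all of them. Without propyzamide replicate 3 the median of the list was 0.25, with 7 of 9 positive, and that of Fabp2, another fatty acid-binding protein, turned from 0.98 to -0.50. The pan-epithelial list (keratins, claudins and Epcam) went from a median of 0.84 to 0.21, with 9 of 9 tested members positive either way.

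That library also had the highest share of counts in named protein-coding genes (9.64%), in mitochondrially encoded genes (5.49%) and, among named genes, in protein-coding transcripts (76.7%, against 62.6% to 70.6% in the other 7). The part of RNA quality in these differences was not tested. No measure of depth or make-up passed the test between the groups, and after adjustment over 5 measures a single one could not have, since the smallest p that 4 against 4 allows is 0.0286. Named protein-coding genes took 6.69% ± 1.23 of counts with vehicle and 6.94% ± 2.09 with propyzamide (SD, n = 4, exact permutation p = 0.857, adjusted over 5 measures 1). The gene model Gm10800, which took most counts of any gene, had 43.4% ± 1.31 and 44.4% ± 1.31 (exact permutation p = 0.314, adjusted 0.524). Total counts were 1772922 ± 276394 and 1167561 ± 488192 (exact permutation p = 0.114, adjusted 0.357), and genes with a count numbered 22036 ± 3214 and 17481 ± 3449 (exact permutation p = 0.143, adjusted 0.357). Both were lower with propyzamide by more than the SD of either group. Spearman correlations between libraries over the 2465 tested named genes averaged 0.630 within vehicle, 0.537 within propyzamide and 0.584 between the groups.

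Goblet cell genes included a member whose groups did not overlap. Agr2, a protein disulfide isomerase needed to make mucin, had 3.30, 1.31, 3.59 and 0.568 in the vehicle libraries and 11.7, 5.40, 11.1 and 8.94 in the propyzamide libraries (CPM). Every propyzamide library lay above every vehicle library, on 56 counts in all (log2 fold change 2.08 ± 0.93 (SE), edgeR adjusted p = 1). It was 1 of 6 tested members with such groups, against 0.974% of all tested genes. Zg16, a goblet cell lectin that binds bacteria, had 20, 24, 42 and 22 with vehicle and 30, 8, 95 and 39 with propyzamide (counts, 1.33 ± 0.67). The mucin Muc2 and the trefoil factor Tff3 had 0.54 ± 0.66 and 0.49 ± 0.66. Of the goblet cell list, 6 of 6 tested members were positive with all libraries and 6 of 6 without propyzamide replicate 3 (medians 0.52 and 0.37). On protein-coding transcripts alone the median was 0.12.

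**Figure D2:**
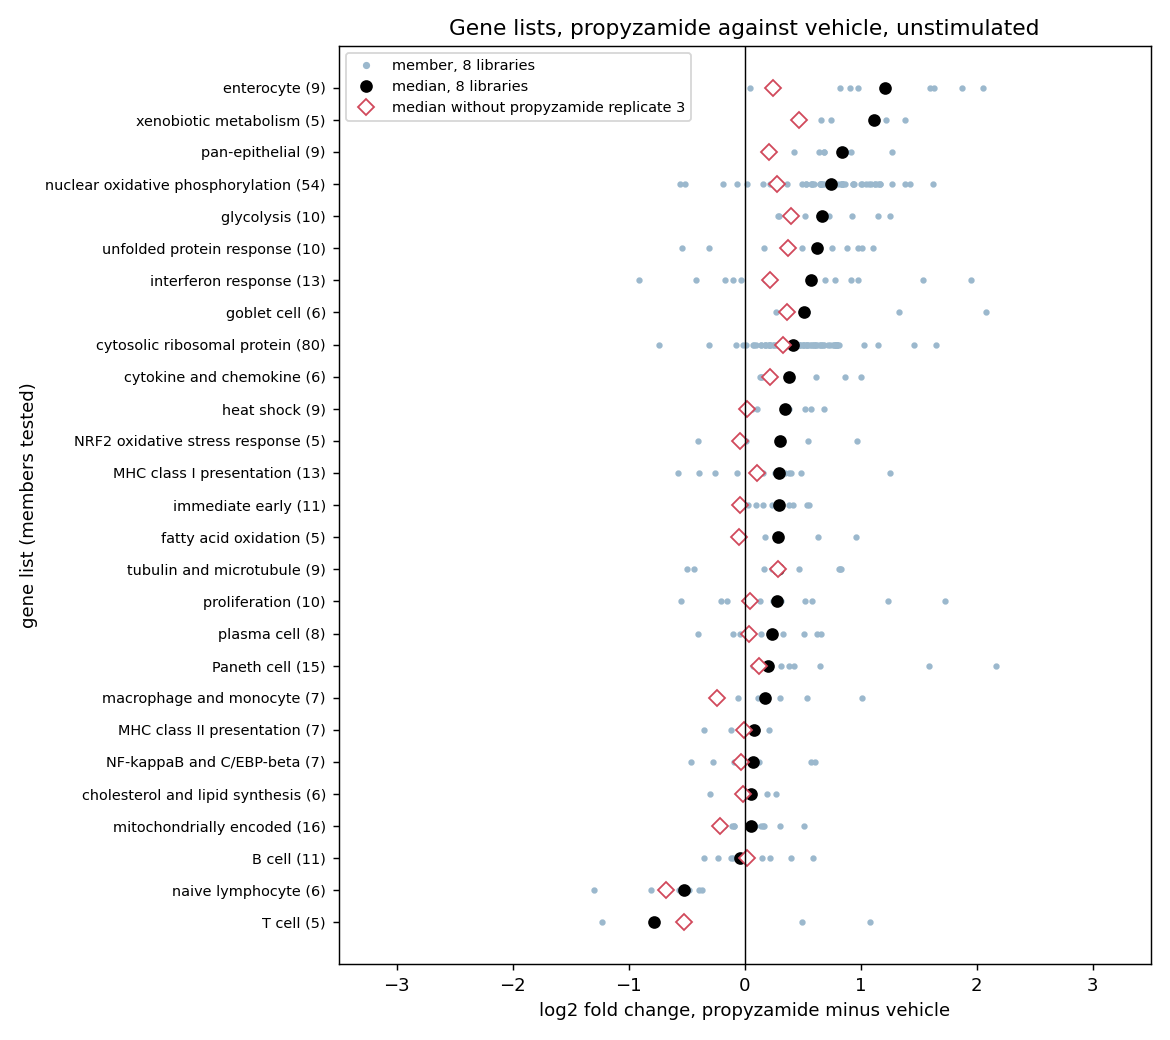
Log2 fold changes, propyzamide minus vehicle, of the tested members of 27 gene lists with at least 3 of them (pale points), with each list's median over all 8 libraries (black circles) and without propyzamide replicate 3 (open red diamonds). The enterocyte median moves from 1.21 to 0.25 and that of nuclear oxidative phosphorylation from 0.74 to 0.28 when that library is left out.

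The genes for which the compound has been studied in intestinal inflammation were too low to compare or gave no call. The aryl hydrocarbon receptor (Ahr) is a ligand-activated transcription factor that turns on Cyp1a1 and its own repressor Ahrr. NF-kappaB and C/EBP-beta are transcription factors of inflammatory genes. None of the 12 genes of the aryl hydrocarbon receptor list passed the filter, and together they had 279 counts in 8 libraries. Ahr had 1, 1, 2 and 5 with vehicle and 0, 9, 0 and 1 with propyzamide. Its ratio of counts per total count, propyzamide over vehicle, was 1.69 with a 95% counting interval of 0.616 to 4.69. Cyp1a1 had 2 counts with propyzamide and 3 with vehicle (ratio 1.01, 0.0846 to 8.84), and Ahrr had 20 and 46 (0.660, 0.370 to 1.14). Nfkb1, a subunit of NF-kappaB, had 21 and 38 (0.839, 0.468 to 1.47), and Cebpb, which encodes C/EBP-beta, had 2 and 2. Each of these 4 intervals includes 1, and those of Ahrr and Nfkb1 lie below a 2-fold rise. These intervals are exact (Clopper-Pearson) and cover counting error only (the libraries carry no molecular identifiers, so reads are not independent molecules). Nfkbia, the inhibitor that NF-kappaB induces, was deep enough for the test and had 0.61 ± 0.57 on the log2 scale, while Tnfaip3, another induced inhibitor, had -0.093 ± 0.50. Over the 7 tested members of that list, 4 were positive (median 0.071, from -0.15 to 0.34 without 1 library at a time).

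Enzymes of foreign compound metabolism were low, and the positive estimates leaned on the same library. All 5 tested members of that list were positive (median 1.12), and 3 of 5 were without propyzamide replicate 3 (median 0.47). Gstp1, a glutathione S-transferase, was the 1 of 5 whose groups did not overlap, at 4.13, 11.0, 7.17 and 13.6 in the vehicle libraries and 21.7, 14.4, 25.1 and 17.9 in the propyzamide libraries (CPM, log2 fold change 1.12 ± 0.62 (SE), 95% interval -0.15 to 2.39). Over all tested genes, 0.974% had groups apart with propyzamide higher. Cyp2b10, a cytochrome P450 that the receptor CAR (Nr1i3) induces, had 0, 0, 1 and 1 with vehicle and 0, 4, 11 and 0 with propyzamide (counts), a ratio of 11.4 with a counting interval of 2.65 to 103. Of its 15 counts with propyzamide, 11 lay in propyzamide replicate 3 and the other 4 in propyzamide replicate 2, and propyzamide replicates 1 and 4 had 0.

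Tubulin genes are of interest because the compound's target in plants is the microtubule. Tubb5, a beta-tubulin, had 14.0, 56.5, 25.6 and 42.6 in the vehicle libraries and 25.0, 32.4, 35.7 and 63.7 in the propyzamide libraries (CPM). The estimate was 0.17 ± 0.42 with a 95% interval that runs from -0.69 to 1.03 and just reaches a 2-fold rise. Tuba1b, an alpha-tubulin, had 20.6, 44.7, 17.9 and 28.4 in the vehicle libraries and 33.4, 31.5, 71.3 and 59.2 in the propyzamide libraries (log2 fold change 0.81 ± 0.49 (SE)). Across the list, 7 of 9 tested members were positive with a median of 0.29, and 6 of 9 with 0.29 without propyzamide replicate 3. The median was 0.16 without vehicle replicate 1 and -0.20 with limma on log2(TPM + 1). On protein-coding transcripts alone 3 of 6 were positive (median 0.11).

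Genes of energy metabolism and protein synthesis leaned towards propyzamide without a call. Of the 54 tested nuclear genes of oxidative phosphorylation, the mitochondrial respiratory chain and ATP synthase, 50 were positive (median 0.74) and 6 had an unadjusted p under 0.05. Over all tested genes, 3.37% had such a p in either direction. Without propyzamide replicate 3, 38 of 54 were positive (median 0.28). Atp5d, a subunit of ATP synthase, had 12.4, 9.64, 5.12 and 10.8 in the vehicle libraries and 18.4, 13.5, 34.6 and 16.8 in the propyzamide libraries (CPM), with the groups just apart. This held for 2 of the 54, against 0.974% of all tested genes with propyzamide higher. Of 80 tested cytosolic ribosomal protein genes, 76 were positive (median 0.42) and 66 without that library (median 0.33). Rpl28, of the large ribosomal subunit, had 6.61, 7.45, 6.15 and 6.81 in the vehicle libraries and 26.7, 12.6, 12.8 and 10.1 in the propyzamide libraries, again not overlapping. It was 1 of the 80 with such groups (1.25%), against 0.974% of all tested genes. All 10 tested glycolysis genes were positive, among them Gapdh with 38.0, 42.5, 13.8 and 12.5 in the vehicle libraries and 51.8, 10.8, 100.3 and 90.5 in the propyzamide libraries (log2 fold change 1.26 ± 0.56 (SE)). Of the 16 tested mitochondrially encoded genes 9 were positive (median 0.057), 1 was without propyzamide replicate 3 (median -0.21), and for 12 of them the interval lies within a 2-fold change. These leans depend on the scale. When the fit held named protein-coding genes alone, the medians were 0.51 for oxidative phosphorylation and 0.28 for ribosomal proteins, and with RLE in place of TMM normalization the median of all genes moved by 0.124. On protein-coding transcripts alone, where all 1332 tested genes had a median of -0.043, 29 of 35 oxidative phosphorylation genes (median 0.43), 50 of 77 ribosomal protein genes (median 0.15) and 7 of 10 glycolysis genes (median 0.33) were positive. The enterocyte median was 0.74 and the pan-epithelial median 0.39 on those transcripts.

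Named protein-coding genes as a class had estimates shifted upward and other gene models downward. The 2465 named genes had a median of 0.16 and the 1334 others a median of -0.19, with 29.5% of the others positive. Without propyzamide replicate 3 they were 0.027 and -0.081. The same split ran inside named genes by the kind of transcript that held the counts. The 1721 tested named genes with at least 50% of counts in protein-coding transcripts had 69.5% positive estimates (median 0.26), and the 743 with less had 42.3% (median -0.080). Without that library these medians were 0.073 and -0.078. In the libraries themselves, 65.8% ± 3.72 of named gene counts lay in protein-coding transcripts with vehicle and 69.1% ± 5.51 with propyzamide (SD, n = 4). The part of this difference in single genes was not tested.

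**Figure D3:**
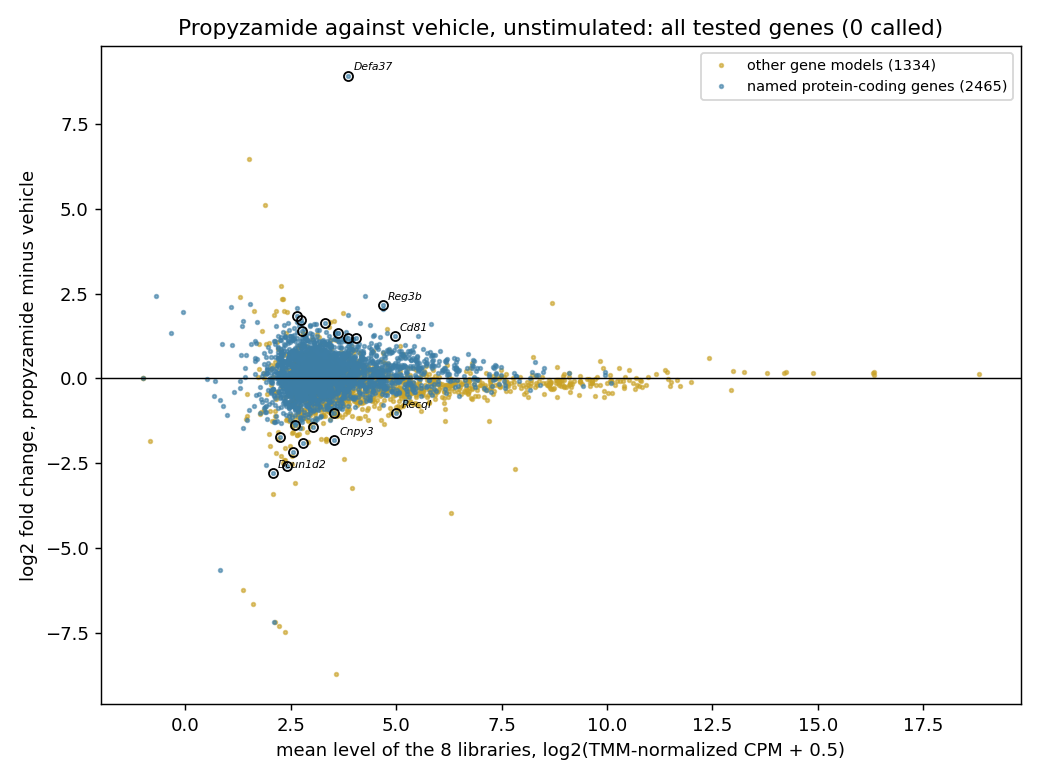
Log2 fold change, propyzamide minus vehicle, against the mean level of the 8 libraries on the log2(TMM-normalized CPM + 0.5) scale for all 3799 tested genes, blue for the 2465 named protein-coding genes and yellow for the 1334 others. Black circles mark the 20 named genes of smallest p, 6 of them labelled, and the spread is widest at low levels.

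The named genes with the smallest p and a higher estimate were Ankrd10, Hnrnpm, Pcna, Defa37, Cd81, Reg3b, Maf1, Ndufb9, Actn4 and Edf1, none of them called (edgeR adjusted p = 1 for all 10). Hnrnpm, an RNA-binding splicing protein (chromosome 17, 33646233 to 33686860, minus strand), had 7.43, 10.5, 8.71 and 6.81 in the vehicle libraries and 33.4, 16.2, 15.0 and 14.5 in the propyzamide libraries (CPM). Its groups did not overlap, and propyzamide replicate 1, the shallowest library, stood highest (log2 fold change 1.19 ± 0.40 (SE), 95% interval 0.37 to 2.01). Over all tested genes 0.974% had groups apart with propyzamide higher, and a choice by p and direction favours such genes. Pcna, the sliding clamp of DNA polymerase (chromosome 2, 132249162 to 132253314, minus strand), had 0.826, 6.14, 2.05 and 2.27 in the vehicle libraries and 6.68, 7.20, 16.7 and 7.82 in the propyzamide libraries (log2 fold change 1.72 ± 0.59 (SE)). Ankrd10 (chromosome 8, 11611583 to 11635757, minus strand) had 3, 4, 8 and 3 with vehicle and 5, 5, 18 and 12 with propyzamide (counts, log2 fold change 1.83 ± 0.60 (SE)). Cd81, a tetraspanin of lymphocytes and epithelium (chromosome 7, 143052739 to 143067934, plus strand), had 22.3, 21.5, 10.2 and 18.7 in the vehicle libraries and 50.1, 20.7, 61.3 and 40.2 in the propyzamide libraries (CPM), and propyzamide replicate 2 lay among the vehicle libraries. Defa37 had 67 counts in propyzamide replicate 1 and 0 in the other 7 libraries. Every stretch of 31 bases in its transcript occurs in other genes, 15 in all, so no single stretch marks Defa37 alone. Whether these counts come from other genes was not tested. All 10 had most of their counts in protein-coding transcripts (78.7% or more), and in 4 of the 10 the highest library was propyzamide replicate 3.

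The named genes with the smallest p and a lower estimate were Cnpy3, Dcun1d2, Smchd1, Nol3, Slc13a1, Rmi2, Grk2, Recql, Sbno1 and Tnik. Cnpy3, a chaperone that folds Toll-like receptors (chromosome 17, 46735705 to 46752214, minus strand), had the smallest p of any named gene. It had 20, 44, 36 and 25 with vehicle and 4, 2, 7 and 7 with propyzamide (counts), or 17.1 ± 2.27 and 5.05 ± 2.72 CPM (SD, n = 4). Each vehicle library was above each propyzamide library, and the estimate was -1.83 ± 0.49 (95% interval -2.83 to -0.82, edgeR adjusted p = 0.692). Its sign held without each library in turn (-2.16 to -1.56). Since Cnpy3 was chosen by its p in these same libraries, that adds no support. The counts of Cnpy3 lay mostly in a transcript with a retained intron, and 20.6% in protein-coding ones. Recql, a DNA helicase (chromosome 6, 142350342 to 142387087, minus strand) and the deepest of the 10, had 61.9, 38.1, 37.4 and 30.6 in the vehicle libraries and 18.4, 29.7, 12.3 and 22.3 in the propyzamide libraries (CPM, log2 fold change -1.02 ± 0.43 (SE)), with 2.17% of counts in protein-coding transcripts. Smchd1, a chromatin protein of X chromosome inactivation (chromosome 17, 71344489 to 71475343, minus strand), had 10.7, 10.1, 8.20 and 14.8 in the vehicle libraries and 6.68, 5.40, 2.79 and 2.23 in the propyzamide libraries (log2 fold change -1.42 ± 0.48 (SE)). Slc13a1, a sulfate transporter, Rmi2, of the complex that resolves crossed DNA strands, and Grk2, a kinase of G protein-coupled receptors, also had groups that did not overlap, on 72, 88 and 71 counts. The groups of Smchd1, Recql and Sbno1 did not overlap either. Over all tested genes 2.11% had groups apart with propyzamide lower. A choice by p and direction favours such genes. Nol3 had 13, 22, 21 and 3 with vehicle and 2, 0, 4 and 0 with propyzamide (counts), with vehicle replicate 4 among the propyzamide libraries. In 7 of these 10 genes protein-coding transcripts held under 50% of the counts, against 0 of the 10 higher genes. Among all tested named genes this held for 743 (30.1%). Both sets of 10 were chosen by p and direction, so the contrast partly restates the shift by kind of transcript given above.

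**Figure D4:**
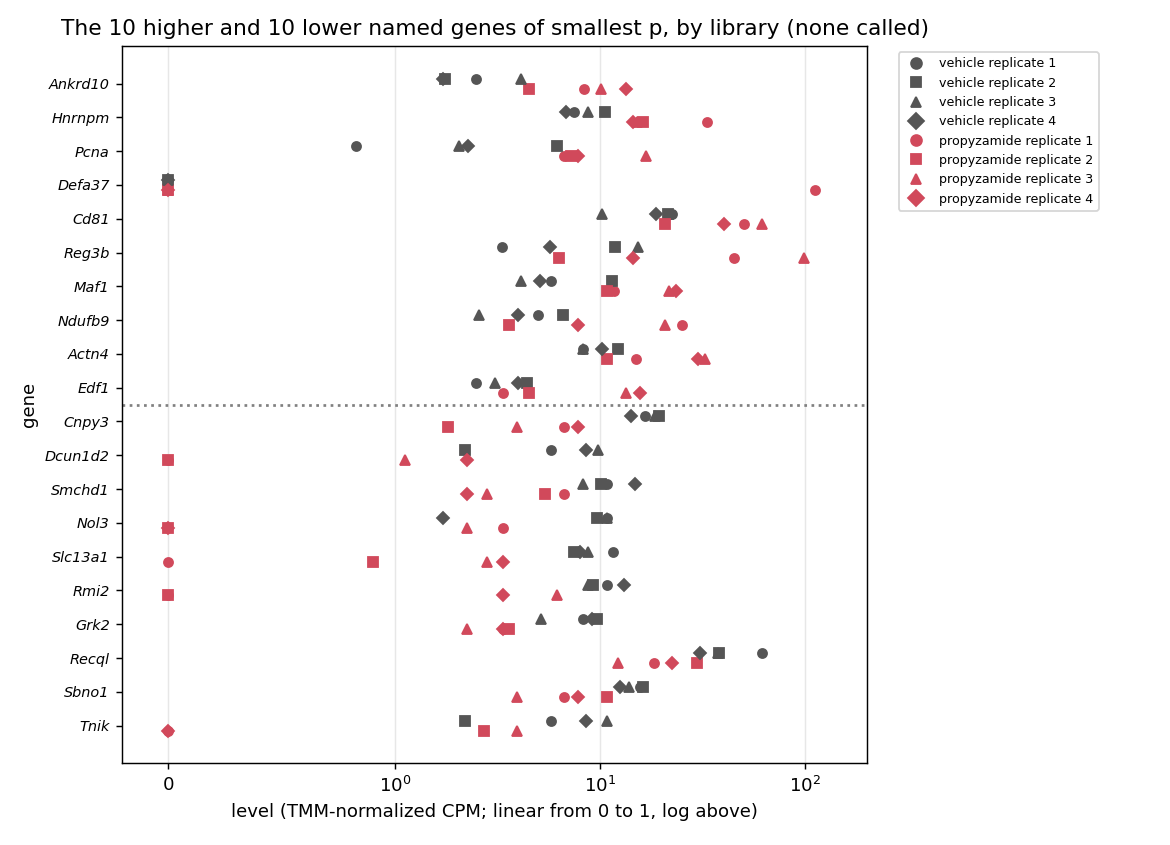
TMM-normalized CPM in each library (linear from 0 to 1, log above; grey for vehicle, red for propyzamide, shape for the replicate) of the 10 higher and, under the dotted line, the 10 lower named genes of smallest p. No gene was called; Cnpy3 has vehicle libraries between 14.2 and 19.3 and propyzamide libraries between 1.80 and 7.82.

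**Figure D5:**
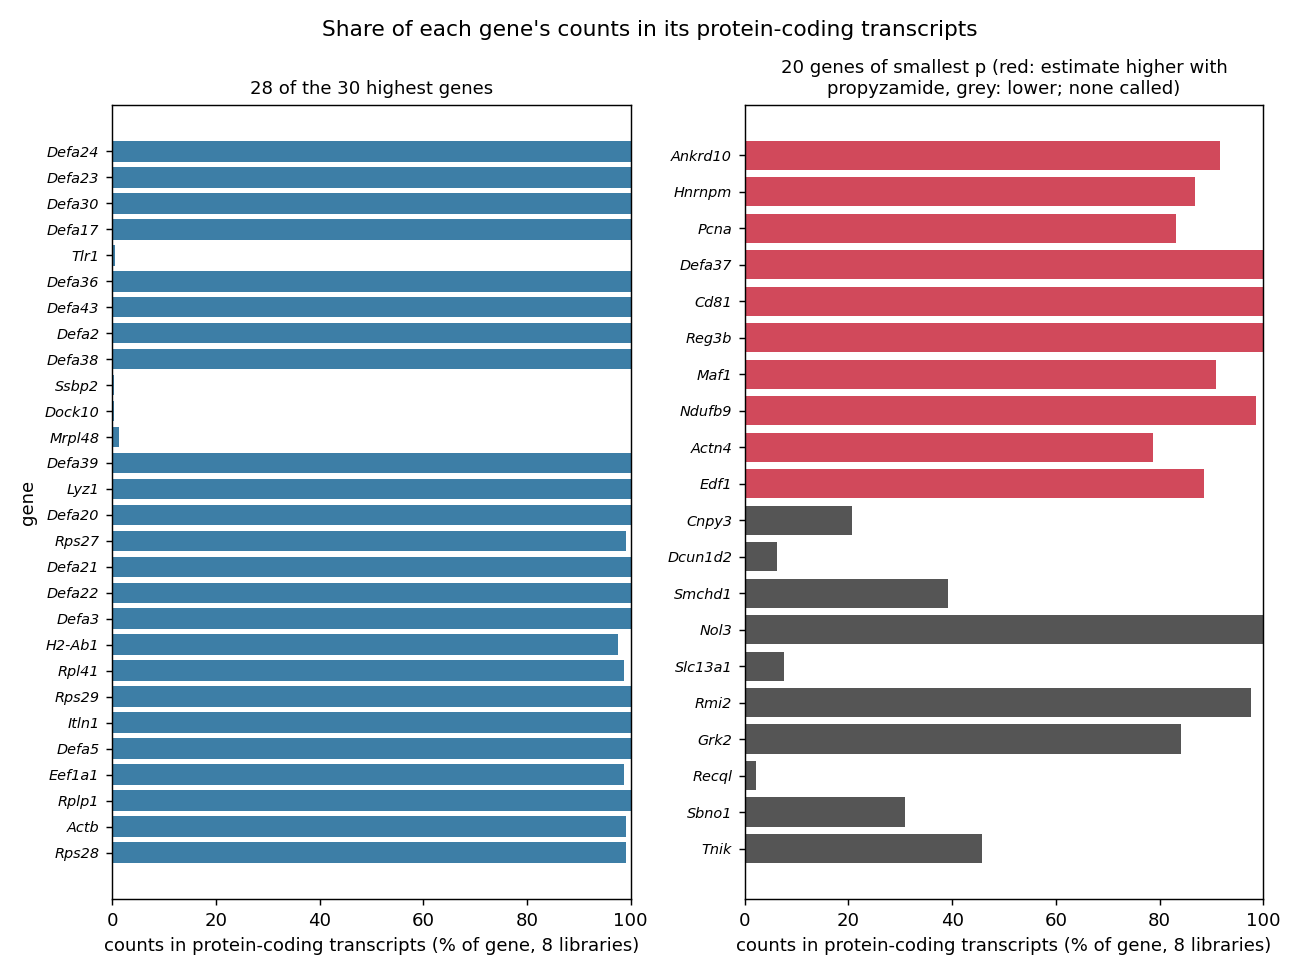
Percent of each gene's counts over the 8 libraries that lie in its protein-coding transcripts, for 28 of the 30 highest genes (left) and the 20 named genes of smallest p (right; red for a higher and grey for a lower estimate with propyzamide). Tlr1, Ssbp2, Dock10 and Mrpl48 stand out among the highest genes, and 7 of the 10 lower genes are under 50%, as are 30.1% of all tested named genes.

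The smallest p-values of all belonged to gene models without a name, chosen here after their values were seen. Gm43070 (chromosome 3, 106553478 to 106553892, minus strand) had 71, 25, 34 and 7 with vehicle and 0, 0, 0 and 0 with propyzamide (counts). Against a floor of 3 counts over the propyzamide group it was at least 30.1-fold lower with propyzamide, but 71 of its 137 counts lay in vehicle replicate 1. Gm48617 (chromosome 12, 37049217 to 37147149, plus strand) had 15, 7, 18 and 11 with vehicle and 0, 0, 0 and 0 with propyzamide and was at least 11.2-fold lower. Both had an edgeR adjusted p of 0.527. Gm49051 (chromosome 14, 82892837 to 82893106, plus strand) had 38, 41, 55 and 55 with vehicle and 0, 0, 3 and 9 with propyzamide at the same adjusted p (log2 fold change -3.22 ± 0.81 (SE)), with every vehicle library above every propyzamide library. The floors cover counting error only. With no filter on low counts, edgeR called Gm43070, Gm48617 and Gm49051 lower, as given below with the other settings.

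How large a difference these 8 libraries leave room for depended on the depth of the gene. The 95% interval reached a median of 1.15 to either side of the estimate on the log2 scale over all tested genes. For 447 of them (11.8%) the interval lies within a 2-fold change in either direction. Among the 290 genes with at least 1000 counts over the 8 libraries this held for 197 (67.9%), and among the 1558 with under 100 counts for 6. Of the tested genes, 3 had no count in these 8 libraries and passed the filter through stimulated ones. Of the 30 highest named genes, 9 had such an interval, Defa24, Defa30, Lyz1, Itln1, Tlr1 and Dock10 among them. For the rest, a 2-fold change was not excluded by these libraries. The common dispersion of the fit was 0.215, a variation of 46.4% between libraries of a group.

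The difference between propyzamide and vehicle was also compared with the same difference at 24 h after anti-CD3, where both groups likewise share a single library index. Of 3799 genes, 0 had an interaction at an adjusted p of 0.05 (0%), 89 had an unadjusted p under 0.05, and the smallest edgeR adjusted p was 0.793. DESeq2 called Apoa4, an apolipoprotein of enterocytes, and the gene model Gm21596 in this comparison, the latter also called by edgeR with no filter on low counts, and both were named after their values were seen. In the unstimulated libraries Apoa4 had 7, 11, 7 and 19 with vehicle and 5, 0, 121 and 10 with propyzamide (counts). The 3 h libraries were not used for such a test, since index and treatment coincide there and cannot be told apart.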

How the data were processed

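The authors deposited 1 table per library with expected counts (estimated counts per transcript) and TPM, per the file headers. Libraries were made with SMART-seq2, per the labels' protocols, and quantified with kallisto on GRCm38, per the submitters' processing notes. The kallisto version and annotation release are not stated there. Estimated counts of 142604 transcripts were summed to 55401 genes by the gene ID in each row and then rounded. Symbols are those of the files; coordinates, transcript sequences and shared stretches of 31 bases from GENCODE M21 on GRCm38.

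The test was the quasi-likelihood F test of edgeR 4.0.16 (R 4.3.3) on counts, with filterByExpr and TMM, over all 24 libraries with 1 coefficient for each of 6 groups, and genes at an adjusted p (Benjamini-Hochberg) up to 0.05 were called. A group has 4 libraries, numbered by accession order only, which pairs nothing. Intervals have 95% confidence. The deposited TPM, which the authors scaled to transcript length, were rescaled to 1000000 over named protein-coding genes, which leave out mitochondrial genes, olfactory and vomeronasal receptors and models named by a number or clone. Genes with no transcript labelled as protein-coding are left out too. Among them are the antibody genes Igha, Igkc and Ighm, which count with the other gene models. The text names the 30 highest of these, the 10 with the smallest p in each direction, and the 2 highest tested members of lists, with some further members by value. The members and the 39 gene lists were chosen with earlier results of these data known. Further settings were RLE normalization, no filter, DESeq2 1.42.0, limma 3.58.1 (voom with quality weights, and trend on log2(TPM + 1)), subsets of libraries or genes, and leaving out each library. The edgeR fit was tested on simulated data. A few genes are not reported here.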

Additional observations from a re-analysis of the deposited data

Results flagged for a closer look

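In each of 110 groups of 4 libraries, the highest or lowest library was checked for a gap to the others that is wide for the group's range. This held in 6 groups, and chance gives about 5 in 100.

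Propyzamide replicate 3 had 5.49% of its counts in mitochondrially encoded genes, where the other 3 propyzamide libraries had 2.06% to 2.56%. The same library had 16.7 CPM of Pcna, the DNA polymerase clamp, against 6.68 to 7.82. Propyzamide replicate 1, the shallowest of the 8, had 33.4 CPM of the splicing protein gene Hnrnpm, against 14.5 to 16.2 in the other 3. It also had 112 CPM of the alpha-defensin Defa37, which had 0 counts in the rest. Vehicle replicate 3 had a rescaled TPM of 20878 for Tlr1, almost all in a non-coding transcript, against 12462 to 13899 in the other vehicle libraries. Vehicle replicate 4 had 1.70 CPM of Nol3, an inhibitor of cell death, against 9.64 to 10.8.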

How the results depend on the processing

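Other settings left the comparison without calls except as follows. With no filter on low counts, edgeR called 7 genes higher and 12 lower, and for the interaction at 24 h 13 higher and 7 lower. Defa37, with counts in 1 of the 8 libraries, was among the 7 higher. The gene models Gm43070, Gm48617 and Gm49051, named above, were among the 12 lower (edgeR adjusted p 9.99e-09, 0.0035 and 0.00057). Gm10925 (higher) and Gm28437 (lower) were called too and had counts in all 8 libraries. DESeq2 called 1 gene higher, Defa37, and for the interaction 2 (Apoa4 and Gm21596). Without 1 library at a time the log2 fold change of Defa37 ran from 0, without propyzamide replicate 1, to 9.53. Ranking by CPM, not scaled to length, kept 18 of the 30 highest genes. Leaving out 1 library at a time moved the difference in the share of named protein-coding genes (propyzamide minus vehicle, 0.258 percentage points) to between -0.639 and 1.03, and that of mitochondrially encoded genes (-0.0414) to between -0.824 and 0.319. For the 20 named genes, 330 of 333 values kept their direction and their side of the threshold, and the other 3 are those of Defa37. These 20 were chosen by their p in this same comparison, and none was called. That count was therefore largely fixed by the choice and is no support for single genes. For 13 of the 27 lists the median kept its sign in every setting run. Over all 27, 60 of 482 medians turned sign, among them some of the Paneth cell, T cell, tubulin and mitochondrially encoded lists. The causes were not tested. Depth limits most of these values: 1558 of 3799 tested genes had under 100 counts over 8 libraries. No paired analysis was possible because the labels give no replicate numbers.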

Other observations

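Heat shock, immediate early, unfolded protein response and interferon response genes were described in no comparison above. The 9 tested heat shock genes all had positive estimates (median 0.35), and 5 of 9 did without propyzamide replicate 3 (median 0.020). Of the 11 tested immediate early genes, among them the transcription factor Fos and its partner Junb, 10 were positive (median 0.29) and 5 without that library (median -0.040). Of the 10 tested unfolded protein response genes 8 were positive (median 0.63), 6 without that library (median 0.38). On protein-coding transcripts alone 4 of 8 were (median 0.088), and the medians of heat shock and immediate early genes were 0.017 and -0.029. Of the 13 tested interferon response genes 8 were positive with that library and 8 without it (medians 0.57 and 0.22). When the fit held only the unstimulated libraries, 4 members of that list passed the filter on low counts and 2 of them were positive (median 0.020). Apoe and Selenop, macrophage-expressed secreted proteins, had 0.12 ± 0.47 and 0.14 ± 0.45 on the log2 scale (SE). None of these genes was called.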
